A study of Mus musculus with 24 samples.

Results

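Mitochondria make a small set of proteins themselves, and the ribosome that makes them is built almost wholly from proteins encoded in the nucleus. The genes described here are those nuclear genes whose symbol is Mrpl or Mrps followed by a digit, which name proteins of the large and the small mitochondrial ribosomal subunit. In the platform annotation 80 probe sets, the array's units of measurement, had exactly 1 gene and such a symbol, and they stood for 71 genes of the 22180 genes with a probe set of their own. Where a gene had several probe sets, the one with the highest mean over the 24 arrays was used. A test required an intensity of at least 20 on at least 2 arrays, which 67 of the 71 genes and 9908 genes of the whole array reached. Mrpl27, Mrpl48, Mrps14 and Mrps36 did not reach it. A further 7 genes, among them Mrpl41 and Mrps6, lay only on probe sets that match several genes and were left out.

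The RNA was that of mouse embryonic fibroblasts (MEF) at early passage, which are grown out of embryo tissue and kept in culture. Refed cells had been held for 48 h in low serum, 0.5% in the sample protocol but 0.1% in the design text, and were collected at 0.5, 1 and 2 h and every 2 h to 30 h after medium with 10% serum was returned. The 0 h cells were collected after the 48 h of low serum and before refeeding, and the unsynchronised cells were the controls, for which the labels name no starvation. The 0, 12, 18 and 24 h times and the unsynchronised cells had 2 arrays each, and each of the other 14 times had 1 array. The pairs are labelled as biological replicas. Whether each came from its own culture is not given in the sources used here, and the tests can then speak only for the array-to-array spread, part of which may be technical. All values are relative to the RNA on the array, so fewer transcripts per cell and fewer cells that carry them cannot be told apart.

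The mitochondrial ribosome translates the transcripts of mitochondrial DNA, which code for subunits of the respiratory chain and of ATP synthase. Its proteins are imported from the cytosol and assembled on ribosomal RNAs that are made inside the organelle. Many descend from bacterial ribosomal proteins, and the others are found only in mitochondria. The large subunit holds the catalytic core that joins amino acids, the central protuberance, the stalk that recruits translation factors, and the exit tunnel for the new chain. The small subunit reads the messenger RNA at its decoding centre, between its head and its body.

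Facts of the arrays bear on every comparison with 0 h. The 2 arrays of 0 h differed more from each other than other pairs did. Over the 67 genes the SD between the arrays of a pair was 0.28 on the log2 scale at 0 h, against 0.14 to 0.18 in the other 4 pairs. Counts of calls are therefore also given with 1 of these arrays left out. Such a fit has only the other 4 pairs to estimate the spread, so it does not measure that of 0 h. The single 26 h array also stood apart, with all 9908 genes at a median of -0.16 log2 units from the 0 h mean. All 10 fibroblast markers listed, among them Col1a1 and Vim, reached 20 on all 24 arrays. Their summed intensity was between 17484 and 18702 at 0 h, between 16207 and 16697 at 12 h and between 12578 and 13030.5 in unsynchronised cells. Markers of macrophages and leukocytes were present as well. Their summed intensity over 10 genes was between 1569 and 2172 at 0 h, between 1465 and 1473 at 12 h, between 1086 and 1339 at 24 h and between 943 and 1019 in unsynchronised cells. Of the 10, Laptm5 reached 20 on no array and Ptprc on 2, whereas Lyz2, Cd68, Fcer1g, Csf1r and Adgre1 did on all 24. Of 8 markers of endothelial and epithelial cells, Pecam1, Epcam and Cdh1 reached 20 on 0 of 24 arrays, Cdh5, Krt8 and Krt18 on 1 each, Tek on 4 (at most 39.9) and Kdr on 9 (at most 66.2). Their summed intensity was between 89.3 and 92.0 at 0 h, between 89.7 and 104.5 at 12 h, between 84.8 and 85.9 at 18 h, between 68.9 and 74.0 at 24 h and between 77.2 and 80.8 in unsynchronised cells, and was highest at 8 h, at 146.5. Of the 2 tested, 0 were higher and 1, Tek, was lower at 24 h than at 0 h. The part of other cell types in the results below was not tested.

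The promoters are shown for members whose courses carry the results below. A window of 300 bases, from 250 before to 50 after the start of the transcript, was found in the RefSeq table (build GRCm38.p6) for 62 of the 71 genes, in 68 windows. Letters bound by known regulators of nuclear genes for mitochondria were searched on both strands. They were CCGGAAG for the ETS family, to which GABP belongs, GCGCATGC for NRF1, AAGATGGC for YY1 and CACGTG for E-box factors such as MYC. The ETS letters stood in 23 of the 68 windows (33.8%), against 18.1% of the 10038 windows of all genes tested and 8.86% of all 32851 windows in the table. The YY1 letters stood in 12 of the 68 (17.6%), against 4.55% and 2.75% in those sets, and the NRF1 letters in 7 (10.3%), against 5.51% and 2.71%. The E-box stood in 7 of 68 (10.3%), against 10.3% of windows of genes tested and 7.15% of all windows. Those 7 windows are not all separate genes, since Mrpl2 has several overlapping windows that share the same E-box. None of the 4 was found in 29 of the 68 windows (42.6%), against 66.8% of windows of genes tested. Windows of cytosolic ribosomal protein genes held the ETS letters in 18 of 49 (36.7%) and the YY1 letters in 3 (6.12%). None of the 4 was found in 21 of these 49 (42.9%), close to the share among the members. A match is a run of letters and not a bound site.

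The windows below belong to 3 genes that were higher than at 0 h at 12, 18 and 24 h (Mrps27, Mrpl18, Mrpl51), to Mrpl3 of the catalytic core, to Mrpl49, which was lower at 2 h and 4 h, to Mrpl12 of the stalk, and to Mrpl24, whose course was least like that of the others. Capitals mark the searched letters. Mrps27 has the ETS letters on the opposite strand from position -48 (first base, with the start of the transcript at 1) and the YY1 letters from 15, Mrpl18 has ETS letters from -240, Mrpl51 from -90 and Mrpl3 from -19, and Mrpl49 has YY1 letters from 17. Mrpl12 and Mrpl24 hold none of the 4.
Mrps27, chr13:99344536-99344835, plus strand: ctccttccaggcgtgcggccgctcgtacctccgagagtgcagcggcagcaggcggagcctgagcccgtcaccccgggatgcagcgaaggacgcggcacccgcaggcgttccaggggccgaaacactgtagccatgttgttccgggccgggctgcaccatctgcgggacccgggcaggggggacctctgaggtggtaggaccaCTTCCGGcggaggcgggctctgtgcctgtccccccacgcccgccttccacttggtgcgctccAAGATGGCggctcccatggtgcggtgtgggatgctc
Mrpl18, chr17:12916042-12916341, minus strand: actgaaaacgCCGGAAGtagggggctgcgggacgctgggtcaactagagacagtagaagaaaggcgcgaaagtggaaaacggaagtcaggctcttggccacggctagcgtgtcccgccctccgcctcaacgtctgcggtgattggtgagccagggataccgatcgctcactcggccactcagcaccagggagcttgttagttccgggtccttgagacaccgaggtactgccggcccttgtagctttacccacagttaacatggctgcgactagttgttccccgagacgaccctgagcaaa
Mrpl51, chr6:125191950-125192249, plus strand: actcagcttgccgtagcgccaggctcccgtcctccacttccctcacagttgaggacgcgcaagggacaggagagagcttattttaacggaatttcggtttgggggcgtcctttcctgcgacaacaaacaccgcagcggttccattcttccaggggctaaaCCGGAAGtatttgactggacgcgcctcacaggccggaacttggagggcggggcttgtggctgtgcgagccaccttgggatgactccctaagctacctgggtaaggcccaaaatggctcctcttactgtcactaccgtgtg
Mrpl3, chr9:105053018-105053317, plus strand: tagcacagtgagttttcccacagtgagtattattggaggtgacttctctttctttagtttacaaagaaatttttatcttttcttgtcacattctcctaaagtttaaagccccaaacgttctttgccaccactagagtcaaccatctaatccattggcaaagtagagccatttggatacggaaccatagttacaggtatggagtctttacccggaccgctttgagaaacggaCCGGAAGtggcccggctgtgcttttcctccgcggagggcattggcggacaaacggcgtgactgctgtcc
Mrpl49, chr19:6057706-6058005, minus strand: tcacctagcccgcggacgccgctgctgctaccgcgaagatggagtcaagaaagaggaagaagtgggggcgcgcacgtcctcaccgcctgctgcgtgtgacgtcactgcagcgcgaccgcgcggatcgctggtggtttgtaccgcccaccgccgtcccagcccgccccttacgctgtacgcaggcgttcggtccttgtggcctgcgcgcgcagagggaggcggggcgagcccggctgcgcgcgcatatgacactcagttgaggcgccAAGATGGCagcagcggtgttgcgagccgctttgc
Mrpl12, chr11:120484387-120484686, plus strand: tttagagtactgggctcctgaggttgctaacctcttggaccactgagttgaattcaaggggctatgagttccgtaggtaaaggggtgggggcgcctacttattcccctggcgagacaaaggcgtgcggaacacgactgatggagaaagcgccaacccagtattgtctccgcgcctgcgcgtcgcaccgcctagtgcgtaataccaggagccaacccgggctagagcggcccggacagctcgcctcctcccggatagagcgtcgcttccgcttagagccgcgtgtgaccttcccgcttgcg
Mrpl24, chr3:87919294-87919593, plus strand: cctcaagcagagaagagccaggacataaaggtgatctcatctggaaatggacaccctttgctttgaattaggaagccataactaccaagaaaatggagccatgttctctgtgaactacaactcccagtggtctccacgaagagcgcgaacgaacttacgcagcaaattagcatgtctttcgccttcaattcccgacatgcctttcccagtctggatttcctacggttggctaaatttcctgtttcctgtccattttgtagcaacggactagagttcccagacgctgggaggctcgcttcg

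Median expression of the mitochondrial ribosomal proteins was lowest 2 h after refeeding and lay above that of both arrays of starved cells from 8 h on. On the 2 arrays of 0 h the medians of the 67 genes were 0.04 and -0.04 log2 units from the 0 h mean. They lay at -0.13 at 0.5 h, -0.20 at 1 h and -0.29 at 2 h, where 15 of 67 genes were above their own 0 h mean. At 4 h the median was -0.06 (0.03 after renewed quantile normalization). At 6 h it was 0.03, between those of the 2 arrays of 0 h, with 37 of 67 genes above their 0 h mean. At 8 h it was 0.11, and on the 2 arrays of 12 h it was 0.20 and 0.29, with 52 and 53 of 67 genes above. From 14 h to 30 h it stayed between 0.08 and 0.21, and on the 2 unsynchronised arrays it was 0.18 and 0.26. Over all 9908 genes the median stayed between -0.16 and 0.10 throughout, and over the 53 cytosolic ribosomal proteins tested between -0.16 and 0.14. The cytosolic median was lowest at 1 h, within the early dip of the members, and was -0.02 at 2 h. It was highest at 26 h. Of the 67 genes 23 had their lowest time at 2 h and 10 at 1 h. The highest time was 26 h for 17 genes, which is the array that stood apart, and no single time after 4 h other than 26 h and 30 h held more than 6 of these maxima.

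**Figure D1:**
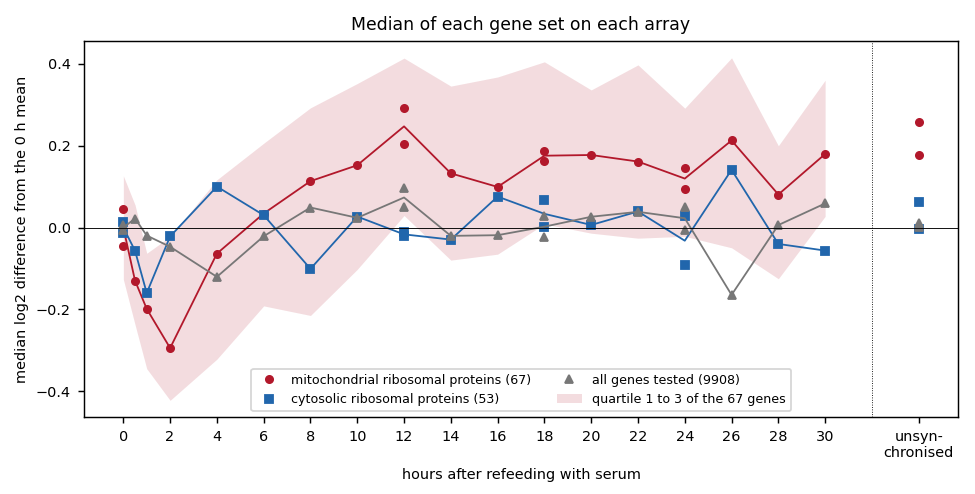
Median log2 difference from the 0 h mean on each array (points) against hours after refeeding, for 67 mitochondrial ribosomal protein genes, 53 cytosolic ribosomal protein genes and all 9908 genes tested. Lines join the means of each time, the shaded band runs from the first to the third quartile of the 67 genes, and unsynchronised cells stand at the right. The mitochondrial ribosomal median was -0.29 at 2 h and 0.20 and 0.29 at 12 h.

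The members varied less than other genes but did so together. The range of a gene's mean over the 18 times had a median of 0.83 log2 units among the 67 genes, against 1.03 among all 9908. Pearson's r between 2 members over the 24 arrays had a median of 0.37 over 2211 pairs, of which 86.1% were above 0, against a median of 0.04 over all pairs of genes tested. These correlations are a description, since all genes share the same arrays. With limma, 10 of 67 genes (14.9%) varied over time, against 43.7% of all genes tested. They were Mrpl12, Mrpl14, Mrpl18, Mrpl42, Mrpl49, Mrpl51, Mrpl55, Mrps10, Mrps27 and Mrps30, with the smallest adjusted p at Mrpl49 (0.000257). The count was 21 with the first 0 h array left out, 26 with the second left out, 7 without the 26 h array, and 5 to 7 without an array of 12 h, 18 h or unsynchronised cells.

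**Figure D2:**
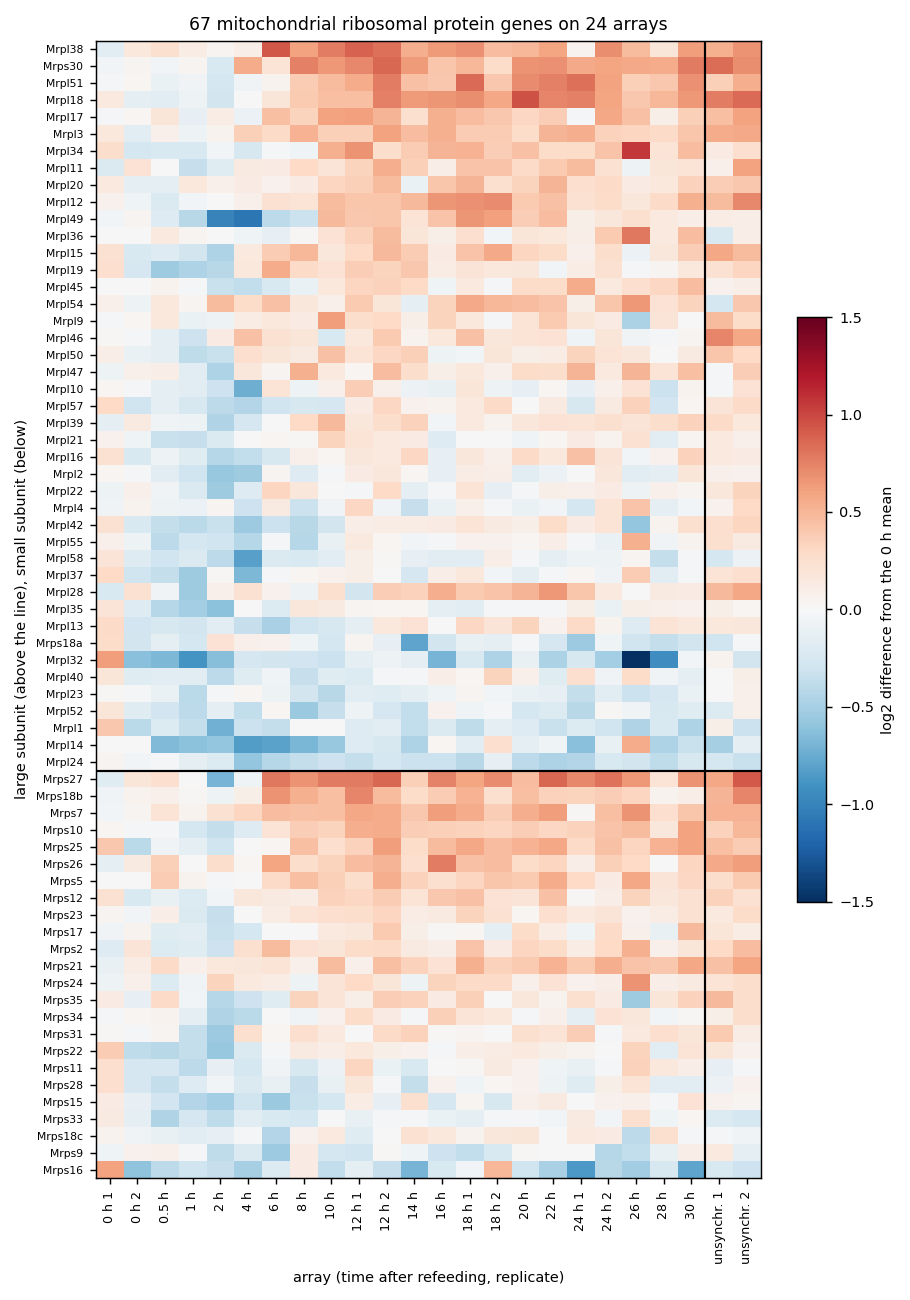
Log2 difference from the 0 h mean for each of the 67 genes (rows, large subunit above the line and small subunit below, ordered by the 12 h difference) on each of the 24 arrays (columns, by time, with unsynchronised cells at the right). Red is above and blue below the 0 h mean. Blue prevails from 0.5 h to 2 h, and at 12 h 52 and 53 of the 67 genes were above.

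The early dip was largest in Mrpl49, a large-subunit protein without a bacterial counterpart. The comparisons of 2 h and 4 h with 0 h were added after the dip was seen, and each rests on 1 array at the later time, taken to vary as the pairs do. At 2 h, 3 of 67 genes (4.48%) were lower and 0 were higher (limma, adjusted p under 0.05), against 6.8% lower and 6.28% higher among all 9908 genes. At an unadjusted p under 0.05, 15 were lower and 0 higher, against 1464 lower and 1143 higher of all 9908 genes. At 4 h, 8 were lower (11.9%) and 1 higher (1.49%), against 22% lower and 12% higher among all genes. The share called lower was thus below that of all genes at both times. The median at 4 h was -0.06, against -0.12 over all genes. Mrpl49 had intensities of 67.8 at 2 h and 64.2 at 4 h, against 132 and 139.7 at 0 h. Both later arrays lay below both 0 h arrays, with log2 differences of -1.0 (SE 0.15, adjusted p = 0.00139) and -1.08 (SE 0.15, adjusted p = 0.000403). The count of genes lower at 2 h was 3 without the first 0 h array and 15 without the second, and at 4 h it was 5 and 16. The count at 2 h was 1 with any single array of 12 h or 18 h left out.

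The other genes lower early took part in different regions of the ribosome. Mrps27, a small-subunit protein with pentatricopeptide repeats, was at 24.8 at 2 h, against 35.3 and 45.6 at 0 h, a difference of -0.70 (SE 0.20, adjusted p = 0.045). Mrpl2, a protein of the catalytic core, was at 44.7 at 2 h and 45.8 at 4 h, against 67.5 and 65.0 at 0 h, and was lower at both times, with differences of -0.57 (SE 0.15, adjusted p = 0.0317) and -0.53 (SE 0.15, adjusted p = 0.0208). Among those lower at 4 h only, Mrpl58, a peptidyl-tRNA hydrolase that frees stalled ribosomes, was at 124, against 249 and 189.6 at 0 h. Mrpl14, which lies at the face towards the small subunit, was at 19.9 at 4 h, against 35.2 and 35.7 at 0 h. Mrpl10 of the stalk was at 121, against 205 and 196, and Mrpl24, which lines the exit tunnel, at 177, against 271 and 256. The same call was made for Mrpl37 and Mrpl42. Mrpl2, Mrpl14, Mrpl37 and Mrpl58 were singled out after their values were seen, as were the other members described below that no part of the naming rule covers. In the opposite direction, Mrps30, which despite its name is a protein of the large subunit, was at 90.5 at 4 h, against 59.5 and 63.1 at 0 h, a difference of 0.56 (SE 0.17, adjusted p = 0.0234).

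The whole course of Mrpl49 shows the size of the swing. From 132 and 139.7 on the arrays of 0 h it passed 119 at 0.5 h, 101 at 1 h, 67.8 at 2 h and 64.2 at 4 h. It was at 104 at 6 h, 109 at 8 h and 190.4 at 10 h. After 214 and 208 at 18 h it stood at 144 and 152 at 24 h and 145 at 30 h. The low values held over 6 single arrays from 0.5 h to 8 h, each below both 0 h arrays, and each array from 10 h on was above them. Mrpl14 was below both its 0 h arrays on every array from 0.5 h to 14 h, at 22.4 at 0.5 h and 22.0 at 8 h. Mrpl55, a large-subunit protein called over the whole course but at no single time compared, was at 77.7 at 4 h, 77.6 at 8 h and 151 at 26 h, against 110.0 and 99.0 at 0 h, and its highest value is that of the array that stood apart.

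By 8 h the median difference from 0 h was 0.11 and 41 of 67 genes were above 0. limma called 2 higher and 0 lower, against 16.1% higher and 13% lower among all genes. An unadjusted p under 0.05 gave 10 higher and 3 lower, against 2244 higher and 1840 lower of all 9908 genes. Without the first 0 h array the counts were 6 higher and 0 lower, and without the second they were 4 higher and 6 lower. The 2 called genes were Mrps27, at 64.2 against 35.3 and 45.6 at 0 h, and Mrps30, at 103 against 59.5 and 63.1. The 8 h value is 1 array.

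At 12 h, when genes of DNA replication had risen, 13 of 67 mitochondrial ribosomal genes (19.4%) were higher than at 0 h and 0 were lower, against 18.9% higher and 11.8% lower among all 9908 genes. The share called higher was thus close to that of all genes. The median difference was 0.23, against 0.08 over all genes, and 54 of 67 genes (80.6%) were above 0, against 56.9% of all genes. At an unadjusted p under 0.05, 19 were higher and 0 lower, against 2542 higher and 1640 lower of all 9908 genes. Without the first 0 h array 15 were higher and 0 lower, and without the second 10 were higher and 3 lower. Without the first 12 h array the number higher was 7, and without the second it was 4. The 13 were Mrpl3, Mrpl12, Mrpl17, Mrpl18, Mrpl38, Mrpl49, Mrpl51, Mrps7, Mrps10, Mrps18b, Mrps26, Mrps27 and Mrps30. In each of them both 12 h arrays lay above both 0 h arrays. These genes were picked by their call, so this adds no evidence of its own, and its share over all genes was not counted. For genes named below as the largest changes, lack of overlap was also a condition of naming. Of the 12 called genes with a promoter window, counted over 12, 18 and 24 h, 7 (58.3%) held the ETS letters, against 28.6% of the 49 windows of the other members tested. The YY1 letters stood in 3 of 12 (25%), against 18.4%, the NRF1 letters in 2 (16.7%), against 10.2%, and the E-box in 0, against 7 of 49 (14.3%). The 7 windows with the E-box include the overlapping windows of Mrpl2, which share the same site. These splits rest on 12 windows and were not tested.

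**Figure D3:**
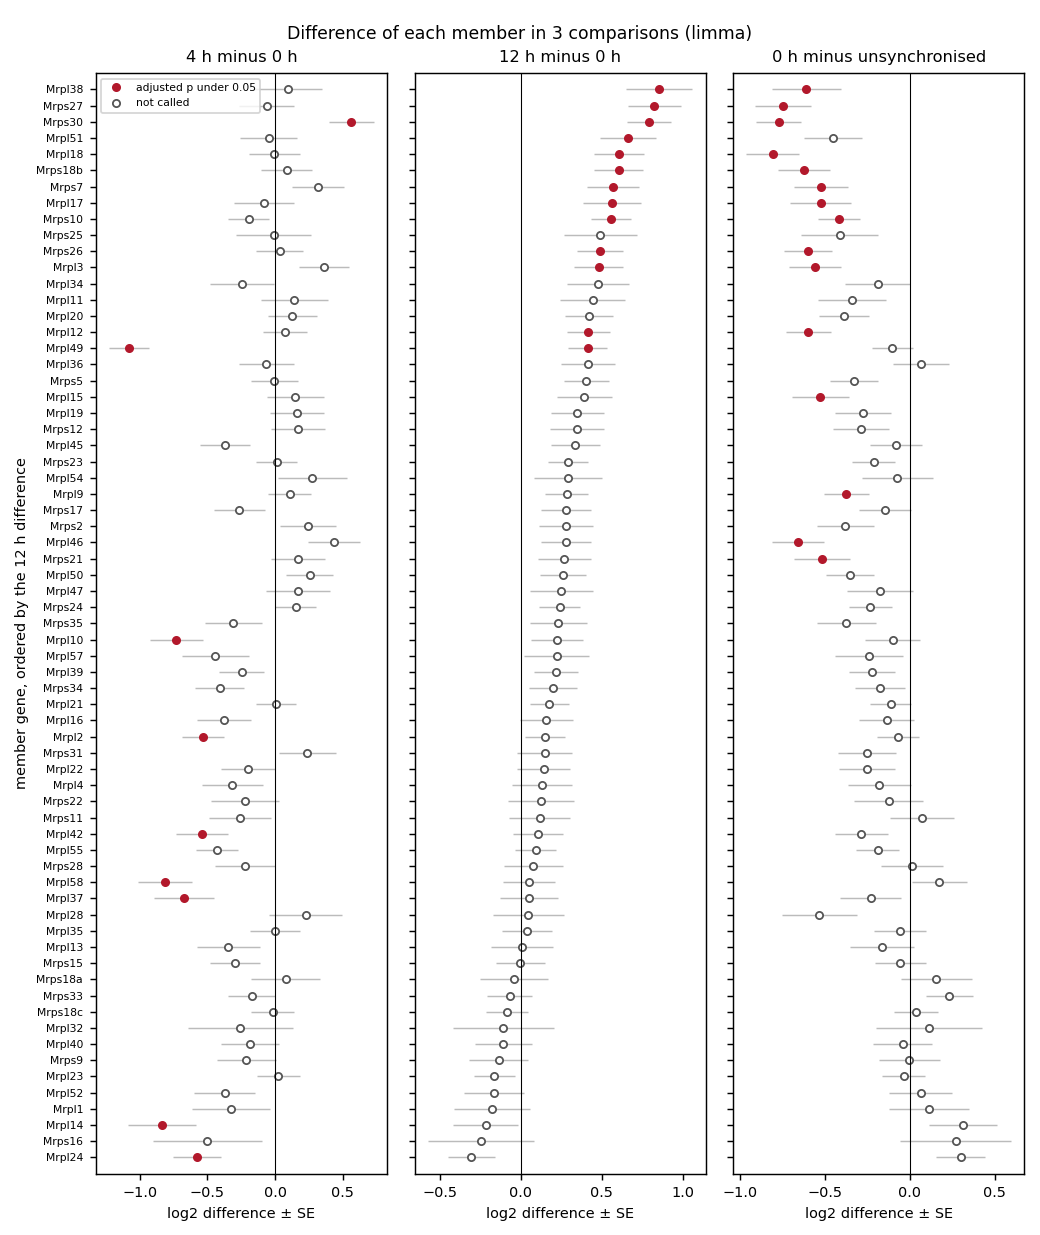
Log2 difference with its standard error (limma) for each of the 67 genes at 4 h minus 0 h (left), 12 h minus 0 h (middle) and 0 h minus unsynchronised (right). Filled points have an adjusted p under 0.05, of which there are 9, 13 and 15.

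In the central protuberance, 2 of the 4 genes tested (50%) were higher at 12 h, against 18.9% of all genes. They were Mrpl38 and Mrpl18, which were among the genes that rose most. Mrpl38 had intensities of 225 and 215 at 12 h, against 108 and 136 at 0 h, a log2 difference of 0.85 (SE 0.20, adjusted p = 0.00974). Its 24 h arrays disagreed, at 126 and 196, and the first of them overlapped the 0 h values. Mrpl18, the counterpart of a bacterial protein that binds ribosomal RNA there, was at 126 and 156 at 12 h, 149.6 and 138 at 18 h and 156 and 139 at 24 h, against 102 and 83.5 at 0 h. All 6 later arrays lay above both 0 h arrays. The differences were 0.61 (SE 0.16, adjusted p = 0.0142) at 12 h, 0.64 (SE 0.16, adjusted p = 0.0104) at 18 h and 0.68 (SE 0.16, adjusted p = 0.00905) at 24 h. Mrpl46, a mitochondria-specific neighbour, was near the minimum throughout, at 18.0 and 21.2 at 12 h against 16.3 and 15.9 at 0 h, and was not called in the time course. Mrpl40, also tested there, was at 50.8 and 57.7 at 12 h, against 66.4 and 51.3 at 0 h. Its difference was -0.11 (SE 0.18, adjusted p = 0.672).

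In the catalytic core, 1 of the 4 genes tested (25%) was higher at 12 h, against 18.9% of all genes. Mrpl3, which reaches close to the site where amino acids are joined, was at 98.9 and 117 at 12 h, against 85.9 and 69.5 at 0 h, a difference of 0.48 (SE 0.15, adjusted p = 0.0339). At 18 h and 24 h it lay above both 0 h arrays too, but the differences of 0.38 (SE 0.15, adjusted p = 0.0803) and 0.45 (SE 0.15, adjusted p = 0.0503) did not pass. Mrpl2, described above, had recovered to 72.1 and 74.8 at 12 h, a difference of 0.15 (SE 0.12, adjusted p = 0.39).

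Of the 3 stalk proteins, only Mrpl12 was called at 12 h (33.3% higher, against 18.9% of all genes). Mrpl12, which contacts translation factors and in human cells has been found with the mitochondrial RNA polymerase, was at 71.2 and 71.1 at 12 h, 86.0 and 87.4 at 18 h and 62.4 and 64.5 at 24 h, against 55.7 and 50.9 at 0 h. Among the times with 2 arrays its highest values were those of 18 h, where the difference was 0.70 (SE 0.13, adjusted p = 0.00263), against 0.42 (SE 0.13, adjusted p = 0.0364) at 12 h and 0.25 (SE 0.13, adjusted p = 0.19) at 24 h. Mrpl11, which with Mrpl10 forms the base of the stalk, was at 63.7 and 73.7 at 12 h, against 43.3 and 58.7 at 0 h. Its difference of 0.44 (SE 0.20, adjusted p = 0.121) came with a larger SE and did not pass. Mrpl10 was at 260.2 and 211 at 12 h, against 205 and 196, a difference of 0.22 (SE 0.16, adjusted p = 0.316). Differences among the 3 were not tested.

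Around the exit tunnel, 1 of 7 genes (14.3%) was higher at 12 h and 0 were lower, against 18.9% higher and 11.8% lower among all genes. That was Mrpl17, at 256 and 237 at 12 h against 163 and 169.7 at 0 h, a difference of 0.56 (SE 0.18, adjusted p = 0.0366). Mrpl24, called lower at 4 h, differed from most members later too. It was at 206 and 220.4 at 12 h, 198 and 243 at 18 h and 194 and 225 at 24 h, against 271 and 256 at 0 h, so that all 6 later arrays lay below both 0 h arrays. The differences of -0.31 (SE 0.14, adjusted p = 0.132) at 12 h, -0.27 (SE 0.14, adjusted p = 0.19) at 18 h and -0.34 (SE 0.14, adjusted p = 0.112) at 24 h did not pass. Mrpl22, whose bacterial counterpart lines the tunnel, stayed close to the minimum, at 23.0 and 28.9 at 12 h against 22.2 and 24.7 at 0 h.

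Among large-subunit proteins without a bacterial counterpart, Mrpl51 and Mrps30 were the most lasting. Mrpl51 was at 72.4 and 83.9 at 12 h, 88.8 and 65.1 at 18 h and 87.1 and 74.8 at 24 h, against 48.4 and 50.2 at 0 h. All 6 later arrays were above the pair at 0 h, whose values lay close together, and the difference at 24 h was 0.71 (SE 0.17, adjusted p = 0.0112). Mrps30 was at 101 and 111 at 12 h and 90.6 and 92.6 at 24 h, against 59.5 and 63.1 at 0 h, with differences of 0.79 (SE 0.13, adjusted p = 0.00156) and 0.58 (SE 0.13, adjusted p = 0.0094). At 18 h, at 86.3 and 74.3, the difference of 0.39 (SE 0.13, adjusted p = 0.0518) did not pass. Mrpl49, low at 2 h and 4 h, was at 179.7 and 181 at 12 h and 214 and 208 at 18 h, and back at 144 and 152 at 24 h, against 132 and 139.7 at 0 h. Its difference at 18 h was 0.64 (SE 0.12, adjusted p = 0.00251). Mrpl42, lower at 4 h, was at 60.7 and 61.3 at 12 h and 65.3 and 62.2 at 18 h, against 66.4 and 48.4 at 0 h, within the range of the 0 h pair, and it was not called at either time.

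In the small subunit, Mrps27 had the largest difference that lasted. It was at 69.0 and 73.1 at 12 h, 60.5 and 65.4 at 18 h and 66.1 and 70.5 at 24 h, against 35.3 and 45.6 at 0 h. All 6 later arrays lay above both 0 h arrays, with differences of 0.82 (SE 0.16, adjusted p = 0.00387) at 12 h, 0.65 (SE 0.16, adjusted p = 0.0129) at 18 h and 0.77 (SE 0.16, adjusted p = 0.00607) at 24 h. Mrps10, a protein of the head, was at 86.9 and 87.3 at 12 h, against 60.5 and 58.2 at 0 h, a difference of 0.55 (SE 0.12, adjusted p = 0.00703). Mrps7, which binds ribosomal RNA in the head, was at 191 and 188 at 12 h and 188 and 166 at 18 h, against 124 and 132 at 0 h, and was called at both times. Mrps12, the protein of the decoding centre, was at 35.4 and 37.4 at 12 h, against 33.5 and 24.5 at 0 h, with no overlap, but its difference of 0.35 (SE 0.16, adjusted p = 0.137) did not pass. The mitochondria-specific Mrps26 was also called at 12 h and 18 h, at 149 and 153 at 12 h and 145 and 148 at 18 h, against 98.2 and 118 at 0 h.

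**Figure D4:**
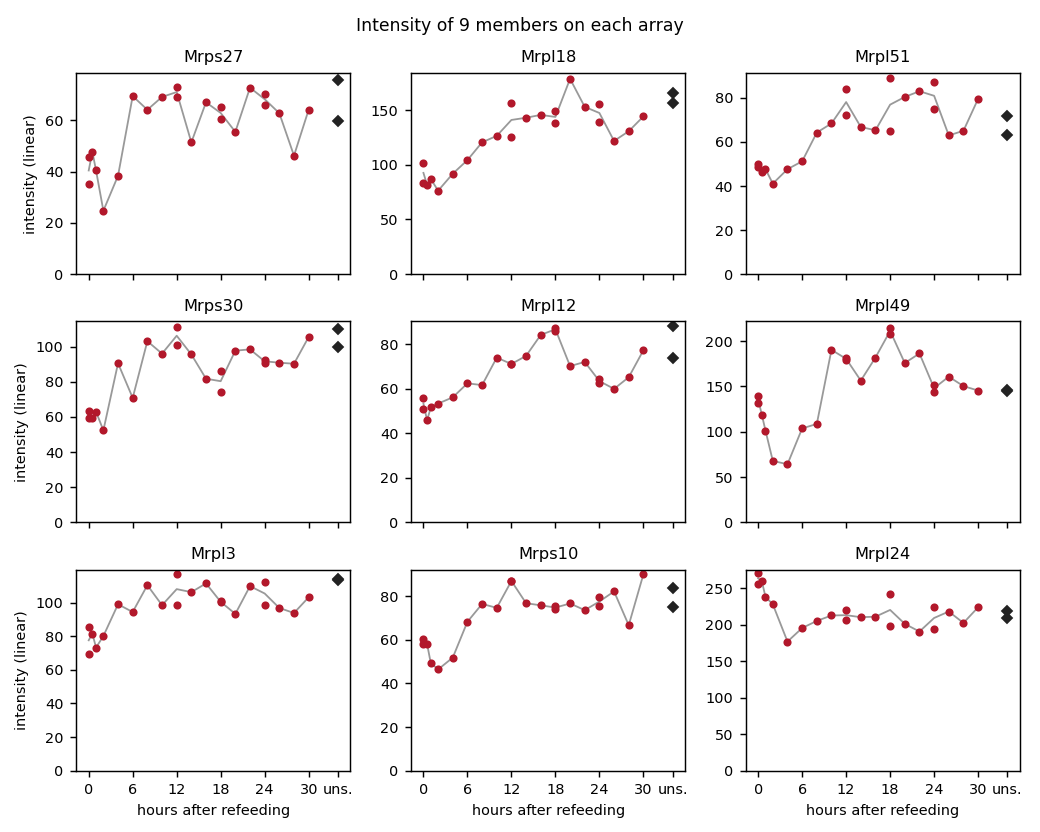
Intensity (linear scale from 0) on each array for 9 genes against hours after refeeding. Red points are arrays of the time course, the grey line joins the means of each time, and black diamonds at the right are the 2 unsynchronised arrays. Mrpl49 was at 64.2 at 4 h and 214 and 208 at 18 h, and Mrpl24 was below both its 0 h arrays at 12, 18 and 24 h.

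The 3 Mrps18 paralogues are related to bacterial S18 and sit at different places of the ribosome. Mrps18b was at 251 and 209.8 at 12 h, against 146 and 157 at 0 h, and was higher by 0.60 (SE 0.15, adjusted p = 0.0131). Mrps18c was at 25.0 and 28.6, against 29.5 and 27.3, a difference of -0.09 (SE 0.13, adjusted p = 0.642). Mrps18a, which is a protein of the large subunit, was at 92.0 and 82.6, against 109 and 74.1, a difference of -0.04 (SE 0.21, adjusted p = 0.897), and its 0 h arrays lay on either side of both 12 h arrays. Whether the paralogues differ from each other was not tested.

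Fewer genes were called later. At 18 h, 8 of 67 were higher and 0 lower, against 15.7% higher and 14.7% lower among all genes, and the median difference was 0.17, against -0.00 over all genes. The 8 were Mrpl12, Mrpl15, Mrpl18, Mrpl49, Mrpl51, Mrps7, Mrps26 and Mrps27. At an unadjusted p under 0.05 there were 22 higher and 0 lower, against 2111 higher and 2037 lower of all 9908 genes. Without the first 0 h array 13 were higher and 0 lower, and without the second 9 were higher and 2 lower. With either 12 h array left out 5 were higher, and with the first or the second 18 h array left out 3 or 4 were. At 24 h, 5 of 67 were higher and 0 lower, against 14.5% higher and 12% lower among all genes, with a median of 0.17, against 0.02 over all genes. They were Mrpl18, Mrpl51, Mrps10, Mrps27 and Mrps30. An unadjusted p under 0.05 gave 9 higher and 1 lower, against 2080 higher and 1732 lower of all 9908 genes. Without the first 0 h array 8 were higher and 0 lower, and without the second 5 were higher and 3 lower. In all, 14 genes were higher at 12, 18 or 24 h, and Mrpl18, Mrpl51 and Mrps27 at each of these times. The shares of all genes higher at any or at each of these times were not counted, so these numbers have no background. The comparisons share the 0 h arrays, so their calls are not independent.

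Against unsynchronised cells, the members called in starved cells were all lower. At 0 h, 15 of 67 genes (22.4%) were lower and 0 higher, against 21.7% lower and 21% higher among all genes. The median difference of 0 h minus unsynchronised was -0.21, against -0.01 over all genes, and 13 of 67 were above 0. At an unadjusted p under 0.05, 21 were lower and 0 higher, against 2555 lower and 2487 higher of all 9908 genes. The count lower was 19 without the first 0 h array, and without the second it was 13 with 3 higher. It was 7 and 5 without the first and the second unsynchronised array. The largest difference was that of Mrpl18, at 102 and 83.5 at 0 h, against 157 and 166 in unsynchronised cells, -0.81 (SE 0.16, adjusted p = 0.0021). Mrps30 was at 59.5 and 63.1 at 0 h, against 109.9 and 99.8 in unsynchronised cells, -0.77 (SE 0.13, adjusted p = 0.00114). Mrps27 was at 35.3 and 45.6, against 59.8 and 75.9, -0.75 (SE 0.16, adjusted p = 0.00437), and Mrpl46 at 16.3 and 15.9, against 26.8 and 24.1, -0.66 (SE 0.15, adjusted p = 0.00613). In these 4 the groups did not overlap, which was a condition for naming them. The other 11 were Mrpl3, Mrpl9, Mrpl12, Mrpl15, Mrpl17, Mrpl38, Mrps7, Mrps10, Mrps18b, Mrps21 and Mrps26. Of these, Mrpl9 and Mrps21, which have bacterial counterparts, were not called at any time against 0 h. Mrpl9 was at 47.7 and 49.9 at 0 h, against 67.7 and 59.0 in unsynchronised cells, and Mrps21 at 34.4 and 40.2, against 50.5 and 56.1. In the central protuberance 3 of 4 genes tested (Mrpl18, Mrpl38 and Mrpl46) were lower at 0 h. Mrpl40 was not called, with a difference of -0.04 (SE 0.18, adjusted p = 0.867). Mrpl49, which is not of the central protuberance, was not among the 15 genes called lower. It was at 132 and 139.7 at 0 h and 146 and 145 in unsynchronised cells. Macrophage and leukocyte markers moved in the same comparison, with 6 of 9 tested higher at 0 h and 0 lower. Fibroblast markers moved in it as well, with 7 of 10 higher at 0 h and 2 lower. The part of either set was not tested.

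At 24 h limma called 0 of 67 genes in either direction against unsynchronised cells, which does not show that the levels were equal. The background was 3.01% higher and 1.56% lower among all genes. At an unadjusted p under 0.05, 4 were lower and 0 higher at 24 h, against 780 lower and 1101 higher of all 9908 genes. The median difference was -0.11, against 0.02 over all genes. None of the following differences passed. Mrpl46 was at 15.4 and 18.3 at 24 h, against 26.8 and 24.1 in unsynchronised cells, a difference of -0.60 (SE 0.15, adjusted p = 0.0567) with no overlap. Mrps26 was at 115 and 138, against 159 and 167, -0.37 (SE 0.14, adjusted p = 0.182). Without the second 0 h array 1 gene was lower, and likewise without the first.

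At 12 h 8 of 43 large-subunit genes (18.6%) and 5 of 24 small-subunit genes (20.8%) were higher, both shares close to the 18.9% of all genes, with medians of 0.22 and 0.25, and at 2 h the medians were -0.26 and -0.32. At 4 h all 8 lower calls were in the large subunit (18.6% of it, against 22% of all genes), but the medians were -0.08 and -0.04, and the difference between subunits was not tested. By origin, as the unified names of ribosomal proteins class them, 6 of 39 genes with a bacterial counterpart (15.4%) and 7 of 26 mitochondria-specific genes (26.9%) were higher at 12 h, with medians of 0.24 and 0.25. The genes whose course over the 24 arrays was most like the mean of the other members were Mrps10 (Pearson's r 0.93), Mrpl18 (0.89) and Mrps25 (0.85), a mitochondria-specific protein of the small subunit. Those least like it were Mrpl24 (-0.26), Mrps18a (-0.19) and Mrps9 (-0.02), a protein of the head. Mrps25 was at 78.7 and 95.3 at 12 h, against 81.9 and 46.5 at 0 h, where the first 0 h array overlapped the 12 h values, and it was not called.

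Brightness depends on the probe sets as well as on the RNA, so levels of different genes were not set against each other. Mean intensity of the 67 probe sets ran between 18.1 and 513 over the 24 arrays. Of the 3 brightest (Mrpl52, Mrpl39 and Mrps15) and the 3 dimmest (Mrpl46, Mrpl36 and Mrpl22), 0 were called against 0 h at any of the times compared. Mrpl39 was at 203 at 2 h and 312 and 332 at 12 h, against 252 and 305 at 0 h. Mrps15 was at 209.5 at 2 h and 321 and 274 at 12 h, against 323 and 274 at 0 h. Mrpl52 was at 391 at 8 h and 547 and 482 at 12 h, against 652 and 509 at 0 h, and Mrpl36 was at 23.1 and 25.2 at 12 h, against 18.1 and 18.2. Among the 67 genes, Mrpl32 and Mrps16 had the widest pairs at 0 h. Mrpl32, whose bacterial counterpart is L32, was at 51.1 and 53.7 at 12 h, against 87.0 and 36.6 at 0 h, and Mrps16 at 74.1 and 64.2, against 124 and 54.0. Neither was called. The 4 genes below the minimum had means of 7.01 (Mrpl27), 14.8 (Mrpl48), 6.05 (Mrps14) and 4.46 (Mrps36, now known as a part of the 2-oxoglutarate dehydrogenase complex rather than of the ribosome).

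A second probe set existed for 9 of the genes. In 7 of them, Mrpl10 and Mrpl12 included, it had a mean of 4.42 to 16.1, below the minimum. The 2 others followed the probe set used, with r over 24 arrays of 0.80 for Mrps16 and 0.63 for Mrps18b. Of mitochondrial ribosomal proteins that go by other names, Dap3, Ptcd3 and Gadd45gip1 were tested. Ptcd3, a small-subunit protein with pentatricopeptide repeats, was lower at 0 h than in unsynchronised cells, with a difference of -0.71 (SE 0.15, adjusted p = 0.00312). The others were not called in any comparison made.

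Genes that build or serve the mitochondrial ribosome were set beside its proteins. At 12 h against 0 h, the comparison in which 18.9% of all genes were higher and 11.8% lower, 4 of 24 assembly factors tested were higher (16.7%) and 1 was lower, with a median of 0.20. At 2 h, 5 were lower (20.8%) and 0 higher, against 6.8% lower and 6.28% higher among all genes. Tfb1m, which methylates the RNA of the small subunit, was lower at 4 h, with a difference of -2.0 (SE 0.17, adjusted p = 2.29e-05), and at 24 h, with one of -0.44 (SE 0.14, adjusted p = 0.0372). Nsun3, a methyltransferase of a mitochondrial tRNA listed with them, was lower at 24 h, with a difference of -0.86 (SE 0.20, adjusted p = 0.00979), and Gtpbp10, a GTPase of large-subunit assembly, was higher then, by 0.49 (SE 0.15, adjusted p = 0.0356). Of 12 translation factors, 4 were higher (33.3%) and 0 lower at 12 h, with a median of 0.22, and Gfm1, the elongation factor that moves the ribosome along, was higher at 24 h by 0.70 (SE 0.17, adjusted p = 0.0106). Of 15 mitochondrial tRNA synthetases, 7 were lower and 0 higher at 4 h, against 22% lower and 12% higher among all genes, and 4 were higher and 0 lower at 12 h (26.7% higher). Lars2, which charges leucine tRNA, was higher at 24 h by 0.49 (SE 0.16, adjusted p = 0.0404).

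Of 14 genes of mitochondrial transcription and RNA handling, 4 were higher (28.6%) and 0 lower at 12 h, against 18.9% and 11.8% of all genes. Supv3l1 and Ptcd2, which act on mitochondrial RNA, were higher at 24 h by 0.65 (SE 0.20, adjusted p = 0.0344) and 0.62 (SE 0.18, adjusted p = 0.0281). Protein import, by which ribosomal proteins reach the organelle, had 9 of 20 genes higher (45.0%) and 0 lower at 12 h, with a median of 0.41. Tomm40, the pore of the outer membrane, was higher at 24 h by 0.84 (SE 0.16, adjusted p = 0.00284), Timm17a of the inner membrane by 0.70 (SE 0.17, adjusted p = 0.0101) and the chaperonin Hspd1 by 0.59 (SE 0.16, adjusted p = 0.0196). Among 8 regulators of mitochondrial biogenesis tested, 4 were higher at 4 h and 0 lower, against 12% higher and 22% lower among all genes. Pprc1, a coactivator related to PGC-1, was higher at 4 h by 1.10 (SE 0.18, adjusted p = 0.00111) and at 24 h by 0.55 (SE 0.15, adjusted p = 0.0191). Nrf1 was higher at 24 h by 0.45 (SE 0.13, adjusted p = 0.0281), and Myc was higher at 2 h by 1.15 (SE 0.22, adjusted p = 0.00619).

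Genes of the cell cycle and of the cytosolic ribosome give the scale. Of 13 replication genes, 12 were higher and 0 lower at 12 h with a median of 1.26, against 18.9% higher and 11.8% lower among all genes. All 12 mitotic genes were higher at 24 h with a median of 1.76, against 14.5% higher and 12% lower among all genes. Of 53 cytosolic ribosomal proteins, 6 were higher (11.3%) and 1 was lower (1.89%) at 12 h with a median of -0.05, both shares below those of all genes. At 0 h against unsynchronised cells the medians were -1.64 for replication genes, -0.35 for protein import, -0.21 for the 67 mitochondrial ribosomal proteins and -0.04 for cytosolic ribosomal proteins.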

How the data were processed

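RNA of mouse embryonic fibroblasts was hybridised to 24 Affymetrix Mouse Gene 2.0 ST arrays. The deposited intensity values were made by the authors with RMA in the oligo package (background correction, quantile normalization and summary per probe set) after quality control with ArrayQualityMetrics, in versions not given in the sources used here. They are on a linear scale (1.74 to 6335), although a header names log2, and for arrays the number of arrays limits the precision. RMA sets the arrays to a common distribution, so only changes relative to other transcripts are measured.

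The platform annotation gives a single gene to 23521 of the 41345 probe sets and several genes to 1820, and the remaining 16004 are unnamed here because it does not list them. Genes were tested on log2 of the value with limma 3.58.1 (R 4.3.3), fitting the 24 arrays together with a separate mean per group (19 groups). Degrees of freedom were 5 residual and 5.58 prior, and tests were two-sided with Benjamini-Hochberg adjustment over 9908 genes and a threshold of 0.05. The model was tested on simulated data. Figures and counts used Python 3.11.15, numpy 2.4.6, pandas 2.3.3 and matplotlib 3.10.9.

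The members and lists were chosen with earlier results of these data known. Members were named if they were among the 4 largest rises or falls called without overlap in the comparisons of 12, 18 and 24 h with 0 h or of 0 h with unsynchronised cells, the 3 brightest or dimmest, the 3 most or least like the others, an Mrps18 paralogue, a stalk protein, or listed in a cluster table of the study (Mrpl3, Mrpl12, Mrpl18, Mrpl42). Genes of other lists were named if among the 3 largest changes called at 24 h against 0 h; Myc, Ptcd3 and other exceptions were picked after their values were seen. The comparisons of 2 h and 4 h and the fit without the 26 h array were added after seeing the data. Alternatives changed the minimum, scaling, moderation, pseudocount (16), probe set rule, replicate block, arrays in the fit and each array of a pair.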

Additional observations from a re-analysis of the deposited data

How the results depend on the processing

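The median change of the 67 genes kept its sign under the alternatives tried, except at 4 h against 0 h, where it lay between -0.147 and 0.0323. At 8 h against 0 h its lowest value was 0.00756, without the second 0 h array. No call of a named gene changed direction, and of 38 called values 33 passed with the replicate block, 33 with no minimum and 33 with renewed quantile normalization. In a fit of only the groups compared, 17 of 29 passed.

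Counts that moved by more than 1.5 times were these. With no minimum, the count lower at 2 h was 1, and that higher at 18 h was 5. Deviations of equally numbered arrays correlated between -0.37 and 0.22, so the arrays share only a number. With the replicate block, 1 was lower at 2 h, and the block moved no other count by over 1.5 times (12 higher at 12 h, 6 at 18 h, 4 at 24 h and 14 lower at 0 h against unsynchronised). With renewed quantile normalization, 2 were higher at 4 h, 3 lower at 8 h and 1 lower at 24 h against unsynchronised. With log2 of the value plus 16, 4 were higher at 8 h. With only the groups compared, 5 were higher at 12 h, 3 at 18 h and 2 at 24 h, from fewer arrays. The cause of the other shifts was not tested.

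With 1 array of a pair left out, against 0 h the count higher lay between 0 and 0 at 2 h, 1 and 1 at 4 h, 2 and 6 at 8 h, 4 and 15 at 12 h, 3 and 13 at 18 h, and 4 and 8 at 24 h. The count lower lay between 1 and 15 at 2 h, 5 and 16 at 4 h, 0 and 6 at 8 h, 0 and 3 at 12 h, 0 and 2 at 18 h, and 0 and 3 at 24 h. For 0 h against unsynchronised it was between 0 and 3 higher and between 5 and 19 lower, and for 24 h against unsynchronised 0 higher and between 0 and 1 lower. Between 5 and 26 genes varied over time. A fit of only the groups compared was not run for single arrays or the whole course, which leave too few arrays. Dim members such as Mrpl46, Mrpl36 and Mrpl22 lie close to the minimum of 20, where changes are least certain.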
